A study of Mus musculus with 26 samples.

Results

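The 38 genes described here are Hox genes of the Hoxa, Hoxb, Hoxc and Hoxd clusters, taken by name out of 21883 protein-coding genes located in the mouse annotation. Of them, 10 lie in Hoxa, 10 in Hoxb, 9 in Hoxc and 9 in Hoxd. For each gene, H3K4me3 peaks were collected over its annotated span plus 1 kb on each side, called its window below. The series studied mouse Ebf1-/- progenitors, blood cell progenitors without the transcription factor EBF1, and cells steered from them toward the B or T lineage. Chromatin immunoprecipitation of H3K4me3 was done in the progenitors and in Early-B cells, with 2 samples per group in the labels and 1 deposited peak list per group. The Early-B cells carried the same Ebf1-/- genotype and received EBF1 through the MigR1-EBF1.ER vector, a fusion that 4-O-Hydroxy-tamoxifen switches on. They were kept for 2 days with the drug on OP9 cells, a mouse bone marrow stromal line, with SCF, FLT3-L and IL-7. The labels do not state how the progenitors were cultured. With 1 list per group there is no replicate spread, so every comparison below is a description of 2 lists and carries no test. In bulk chromatin, a mark on fewer cells and a weaker mark on all cells cannot be told apart.

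Hox genes encode homeodomain transcription factors that lay out the body axis, and their order along each cluster follows where they act from head to tail. In blood, Hoxa7, Hoxa9 and Hoxa10 are known as genes of stem and progenitor cells that are turned down as cells mature, and Hoxb4 is known for expanding blood stem cells. Trimethylation of histone H3 at lysine 4 (H3K4me3) marks start sites that are active or poised. At Hox genes it is laid down by complexes of KMT2A and menin and opposed by Polycomb proteins.

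The Early-B list held 48054 peaks over 83.3 Mb and the progenitor list 31414 peaks over 56.0 Mb. Both lists are permissive: 33.2% of Early-B and 33.4% of progenitor peaks had a q above 0.05. Pileup (read coverage of a peak), fold enrichment and −log10 p are the authors' values, and each ranks, describes or filters peaks within its own list. Where the same threshold is put to both lists, the covered lengths are set side by side, and since depth is unknown a threshold need not be equally strict in both. Of 12 B lineage markers, all 12 had an Early-B peak and 7 also a progenitor peak. Over all protein-coding genes 69.0% had an Early-B peak and 63.0% a progenitor peak. Cd22, Igll1, Blnk and Pou2af1 were among the 5 B lineage markers with no progenitor peak. All 12 stem and progenitor markers had a progenitor peak and 11 an Early-B peak. Of 25 stromal and mesenchymal markers, 22 had an Early-B peak and 12 a progenitor peak. Their summed covered length was 84.0 kb in Early-B and 20.3 kb in progenitors. Tagln, Lum and Dcn had no peak in either list.

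Most of the difference between the lists lay outside Hoxa. An Early-B peak met the window of 24 of the 38 Hox genes, against 69.0% of all protein-coding genes. A progenitor peak met 15, against 63.0%. In 13 genes both lists had a peak, against 61.0% of all genes. Early-B alone had a peak at 11, against 8.01%, and progenitors alone at 2, against 2.01%. The other 12 had a peak in neither list, against 29.0%. Neighbouring Hox genes share peaks, so these genes are not independent: the Early-B list had 33 distinct peaks in the clusters and the progenitor list 14, and 9 and 3 of them met more than 1 gene's window.

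Covered length is the number of bases of a window lying under a peak. A gene with a peak in 1 list only always counts as a 2-fold difference. The counts below therefore contain the 11 genes with a peak in Early-B alone and the 2 in progenitors alone, and are not separate from the counts above. Of the 26 Hox genes with any peak, 15 had at least 2-fold more covered length in Early-B, against 22.0% of all 15547 protein-coding genes with a peak. Progenitors had at least 2-fold more at 2 genes, against 5.20%. Just under the 2-fold line toward Early-B was Hoxb4, with 1.95 times as much, followed by Hoxa5 with 1.80. The nearest above it was Hoxb3, with 3.64 times as much. Of the 15 genes, 3 were in Hoxa, 6 in Hoxb, 5 in Hoxc and 1 in Hoxd. When only peaks with a −log10 p of 10 or more were kept, 17 Hox genes had a peak, 10 of them with at least 2-fold more covered length in Early-B (14.6% of all genes at that threshold) and 2 in progenitors (6.21%). Across all 38 genes the median covered share of the window was 19.3% in Early-B and 0% in progenitors, beside 5.7% and 4.0% over all protein-coding genes. The median Hox window was 5721 bp and that of all genes 19170 bp, so a peak of a given width covers a larger share of a Hox window.

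**Figure D1:**
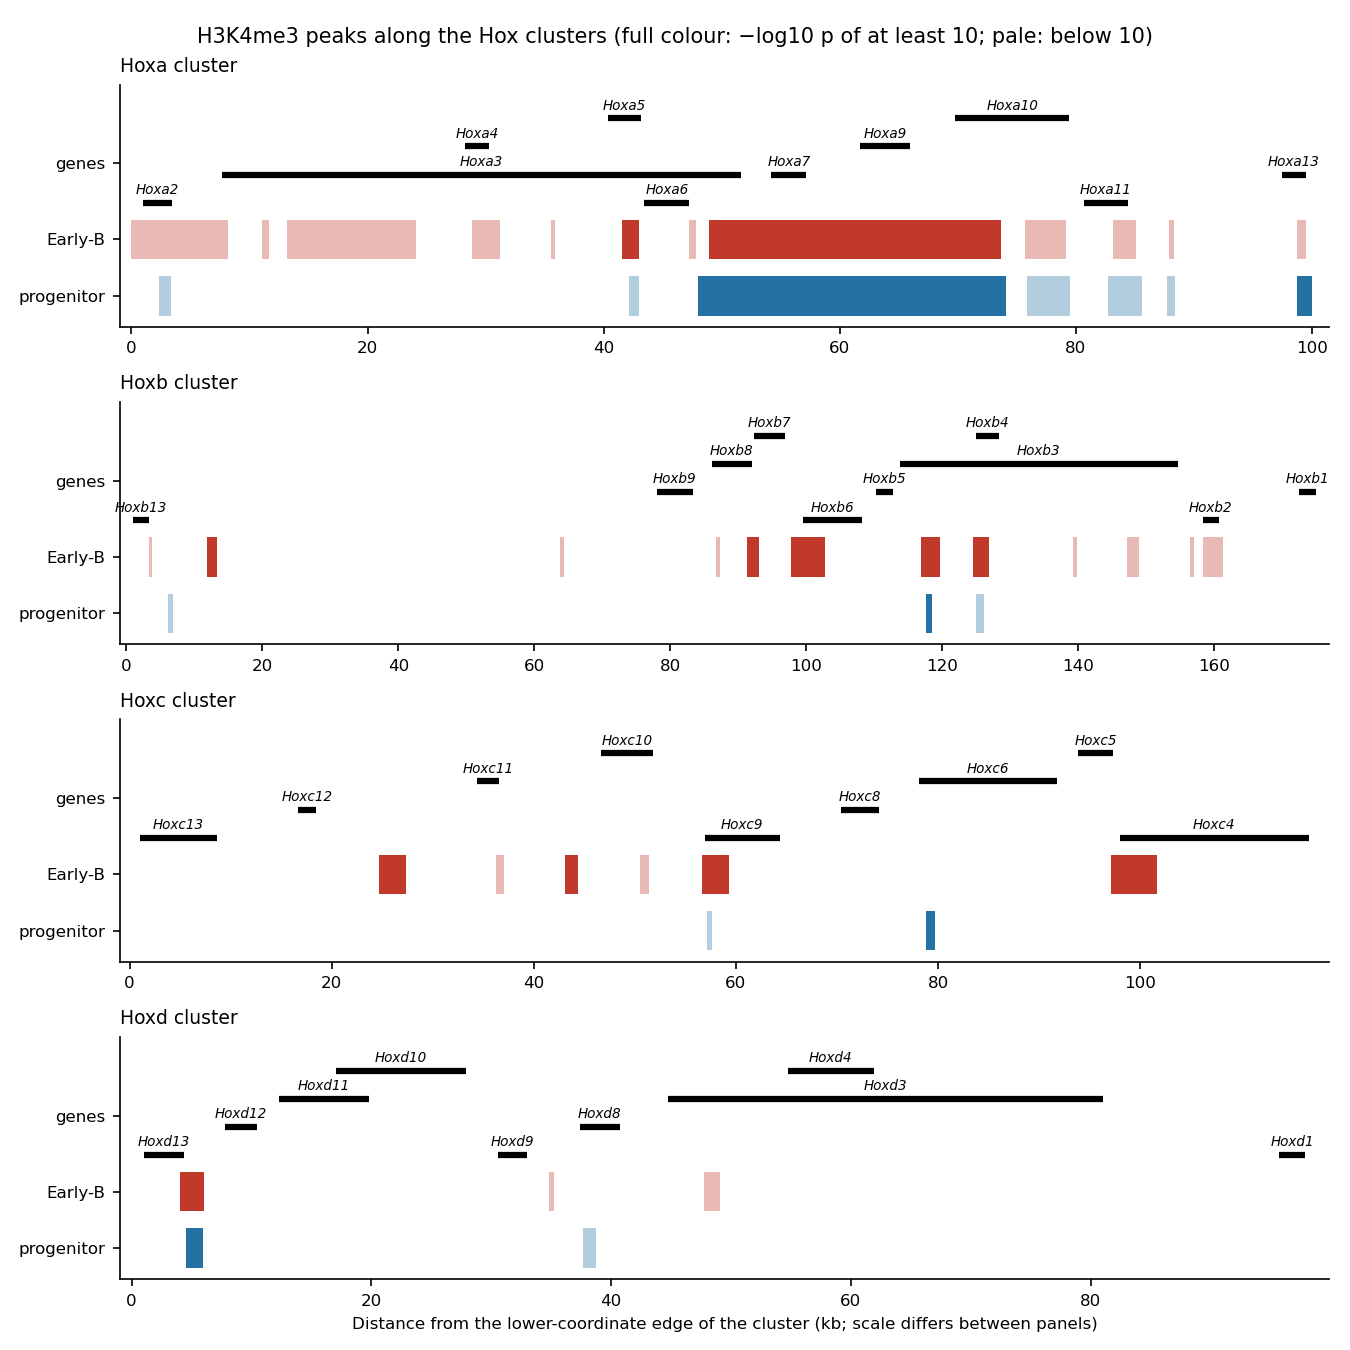
H3K4me3 peaks of the Early-B list (red) and the progenitor list (blue) along the Hox clusters, over the distance from each cluster's lower-coordinate edge in kb (x axis), with gene spans in black, full colour for a −log10 p of 10 or more, pale colour below it, and peaks cut at the cluster edges. In Hoxa the wide peak over Hoxa7 and Hoxa9 is in both lists, and in Hoxb the Early-B list has 12 peaks and the progenitor list 3.

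The Hoxa cluster, read here from Hoxa2 to Hoxa13 with 1 kb on each side (mm10 chromosome 6, 52161417 to 52261880), was the most heavily marked cluster in both lists. Peaks covered 55.7 kb of it in Early-B (55.4%) and 36.3 kb in progenitors (36.2%). Early-B thus had 1.53 times as much, beside 83.3 and 56.0 Mb over all peaks of the lists. A total of 32.9 kb was covered in both lists, which is 90.5% of the progenitor and 59.1% of the Early-B coverage. All 10 Hoxa genes had an Early-B peak and 9 had a progenitor peak.

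The centre of the cluster was covered by 1 very wide peak in each list. The Early-B peak ran from 52210379 to 52235094, 24716 bp, and was the widest of all 48054 Early-B peaks. The progenitor peak ran from 52209423 to 52235490, 26068 bp, and was second in width among 31414, behind a peak of 87215 bp on chromosome 8. The Early-B peak lay wholly inside the progenitor peak, which reached 956 bp further at the lower edge and 396 bp further at the upper. Its −log10 p was 37.8 in the Early-B list, above 78.6% of that list's peaks counted by rank, and 144 in the progenitor list, a rank of 78.7%. Pileup was 54.5 and fold enrichment 7.45 in Early-B, and 147 and 18.7 in progenitors, each on its own list's scale. Whether these values are averages over so wide a peak or belong to its summit is unknown here.

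Hoxa7 and Hoxa9, the leukaemia-linked progenitor genes at the core of this domain, had their whole windows covered in both lists, 4951 and 6274 bp. Hoxa10, their neighbour toward the posterior end, had 8343 bp (71.6%) covered in Early-B and 8878 bp (76.2%) in progenitors. The start sites of Hoxa7 and Hoxa9 and the inner start site of Hoxa10 lay under the wide peak in both lists. The Hoxa9 promoter is printed here because it sits inside this domain and yet holds few CpG sites, 4 in 300 bases, with an observed to expected CpG ratio of 0.28. It lies on the minus strand at chr6:52227321-52227620 (RefSeq, GRCm38.p6), from 250 bases before the start site to 50 after, with each CG in capitals.
Hoxa9: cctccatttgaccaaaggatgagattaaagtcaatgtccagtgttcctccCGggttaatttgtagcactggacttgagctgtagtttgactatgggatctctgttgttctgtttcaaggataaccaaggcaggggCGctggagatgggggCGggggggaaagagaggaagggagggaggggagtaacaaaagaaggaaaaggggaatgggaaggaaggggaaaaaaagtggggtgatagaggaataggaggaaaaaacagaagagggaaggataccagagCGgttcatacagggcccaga

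The anterior side of Hoxa had far more covered length in Early-B. Hoxa2, a patterning gene of the hindbrain and neural crest, had its whole window of 4415 bp covered in Early-B and 1033 bp (23.4%) in progenitors. The Early-B peak over Hoxa2 was 11629 bp wide, the 102nd widest of its list, and ran past the lower edge of the stretch analysed. Its −log10 p was 9.14. The progenitor peak in the Hoxa2 window had a −log10 p of 1.45 and a q above 0.05. The wide Early-B peak also met a second progenitor peak, beyond that edge, of 1825 bp with a −log10 p of 66.1. Hoxa3, whose long annotated span contains Hoxa4, Hoxa5 and Hoxa6, had 21462 bp covered in Early-B and 5473 bp in progenitors. Its window reaches into the wide central peak, which gave 3689 bp of this length in Early-B and 4645 bp in progenitors. The rest in progenitors was the 828 bp peak at Hoxa5. Hoxa4 had 2360 bp (58.7%) in Early-B, from a peak with a −log10 p of 4.11, and no progenitor peak. Apart from the central peak and the one at Hoxa5, the Early-B peaks in these windows were weak, and they ran from 292 to 11629 bp. Of the 12 Early-B peaks in Hoxa only 2 reached a −log10 p of 10, the wide central peak and the one at Hoxa5.

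Hoxa5 and Hoxa6 lay between the anterior stretch and the central domain. At Hoxa5, which acts in lung development, an Early-B peak covered 1487 bp with a −log10 p of 11.2, and a progenitor peak covered 828 bp with one of 1.66 and a q above 0.05. At Hoxa6 1180 bp were covered in Early-B and 823 bp in progenitors. Neither gene differed 2-fold on all deposited peaks. With only peaks of q 0.05 or less both did, Hoxa5 with 1487 bp in Early-B and 0 in progenitors and Hoxa6 with 588 and 250 bp. At Hoxa6 these were edges of neighbouring peaks, the Early-B peak at Hoxa5 and the wide central progenitor peak. Its call changed with the setting: at a fold enrichment of at least 5 it had 0 and 250 bp, and at equal list lengths 588 and 823 bp. The Hoxa6 promoter was the only one of 24 Hox start sites, from 22 genes, to hold the palindromic EBF1 motif, TCCC and GGGA with any 2 bases between them, searched on both strands in 300 bases. The motif was present at 0.96% of 21262 protein-coding start sites. The match begins 133 bases before the start site and is in capitals below (chr6:52208623-52208922, minus strand, RefSeq, GRCm38.p6). An Early-B peak of 592 bp lay over this start site, with a −log10 p of 1.98 and a q above 0.05, and the progenitor list had no peak on it. A match in the letters does not show that EBF1 binds there.
Hoxa6: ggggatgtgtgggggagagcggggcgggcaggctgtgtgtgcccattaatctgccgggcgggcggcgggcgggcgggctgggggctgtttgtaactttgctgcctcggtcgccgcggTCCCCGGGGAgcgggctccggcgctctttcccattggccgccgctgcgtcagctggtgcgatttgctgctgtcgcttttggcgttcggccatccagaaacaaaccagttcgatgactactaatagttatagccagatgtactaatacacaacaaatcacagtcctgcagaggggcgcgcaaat

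The posterior side of Hoxa went the other way, by less than 2-fold. Hoxa11, a limb and kidney gene, had 1897 bp (33.2%) covered in Early-B and 2714 bp (47.6%) in progenitors. Hoxa13, the most posterior gene of the cluster, had 790 bp (19.6%) and 1263 bp (31.4%). With Hoxa10, these were the only 3 of the 10 Hoxa genes with more covered length in progenitors. The order of covered length over the whole cluster also turned when weak peaks were dropped: from a −log10 p of 10 upward Early-B had 26.2 kb and progenitors 27.3 kb.

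**Figure D2:**
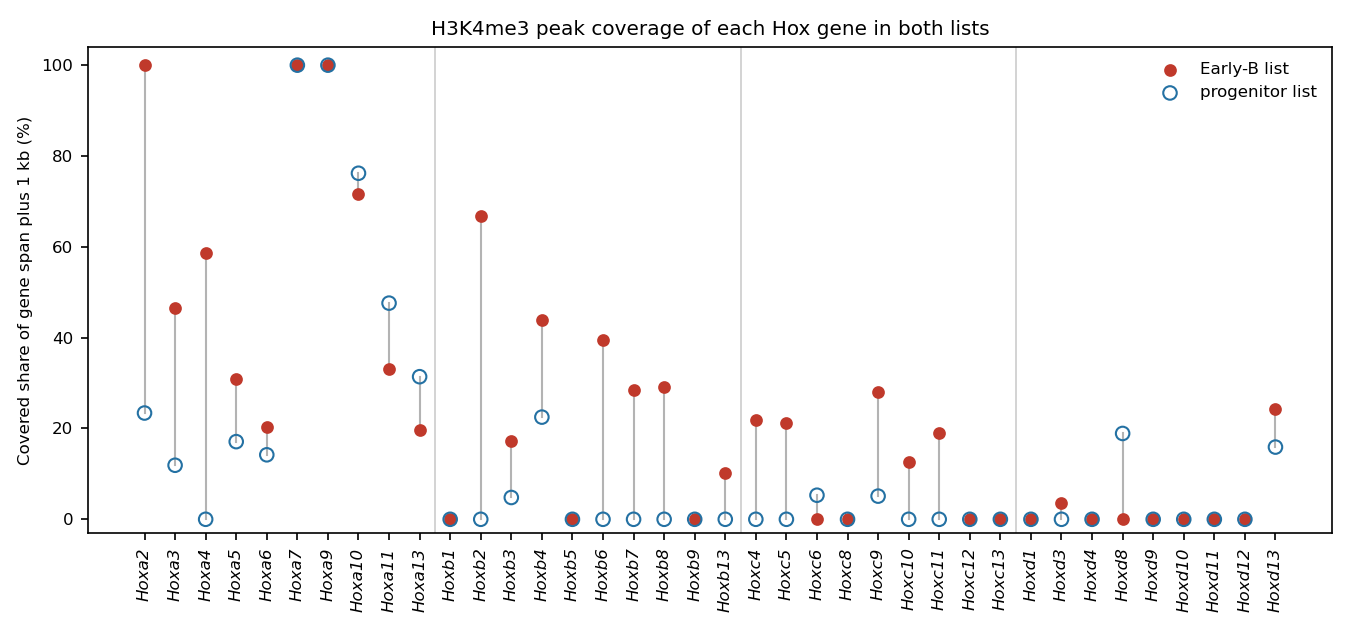
Share of each Hox gene's window (annotated span plus 1 kb on each side) lying under H3K4me3 peaks, in %, for the Early-B list (filled red) and the progenitor list (open blue), with 1 value per list and a grey line joining the pair. Hoxa7 and Hoxa9 are wholly covered in both lists, and the 5 Hoxb genes Hoxb2, Hoxb6, Hoxb7, Hoxb8 and Hoxb13 are at 0% in progenitors only.

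In the Hoxb cluster (chromosome 11, 96193316 to 96369254, 176 kb) nearly all coverage was in the Early-B list. Early-B had 12 peaks covering 20.7 kb (11.8%) and progenitors 3 peaks covering 2.65 kb (1.5%), so Early-B had 7.83 times as much. Of the 12 Early-B peaks, 10 met no progenitor peak. With only peaks of −log10 p 10 or more the lengths were 13.3 and 0.829 kb, and from 20 they were 13.3 and 0 kb.

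The strongest of the Early-B peaks without a progenitor counterpart lay at Hoxb6 and Hoxb7, central Hoxb genes that are expressed in early blood precursors. It ran from 96291134 to 96296051, 4918 bp, across the lower-coordinate end of Hoxb6, and its edge reached the window of Hoxb7. Its −log10 p of 97.2 was the 13th highest among the 24215 Early-B peaks that meet no progenitor peak. The nearest progenitor peak was 14894 bp away. Hoxb6 had 4238 bp (39.4%) covered in Early-B, and Hoxb7 had 1860 bp (28.4%). A second peak, 1840 bp with a −log10 p of 24.3, joined the lower end of Hoxb7 to the upper end of Hoxb8. Hoxb8, which can hold myeloid progenitors immature when forced on, had 2312 bp (29.2%) covered in Early-B. None of the 3 genes had a progenitor peak. At the start site of Hoxb8 given in RefSeq's promoter table, at 96281905, neither list had a peak within 1 kb. The annotated Hoxb8 span begins lower, at 96279401. Near that end lay an Early-B peak of 580 bp with a −log10 p of 2.12 and a q above 0.05.

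Hoxb4 and Hoxb3 had peaks in both lists, wider in Early-B. At Hoxb4 the Early-B peak ran from 96317895 to 96320247, 2353 bp, with a −log10 p of 105 and a pileup of 109, above 87.1% of the Early-B list by rank of p. The progenitor peak ran from 96318316 to 96319524, 1209 bp, with a −log10 p of 2.74 and a pileup of 15, at 30.7% of its list, and its q was above 0.05. With only peaks of q 0.05 or less, Hoxb4 had 2353 bp covered in Early-B and no progenitor peak. The Early-B peak covered the Hoxb4 start site, and the progenitor peak began 49 bp beyond it. In Hoxb3, whose long span contains Hoxb4, a further Early-B peak of 2766 bp had a −log10 p of 57.4, and a progenitor peak of 829 bp inside it had 19.3. Hoxb3 in all had 7421 bp covered in Early-B and 2038 bp in progenitors. The Hoxb4 promoter is shown because the lists part at its start site: all 300 bases lie under the Early-B peak and only the last base lies under the progenitor peak. It is on the plus strand at chr11:96318017-96318316 (RefSeq, GRCm38.p6), with its 14 CG sites in capitals.
Hoxb4: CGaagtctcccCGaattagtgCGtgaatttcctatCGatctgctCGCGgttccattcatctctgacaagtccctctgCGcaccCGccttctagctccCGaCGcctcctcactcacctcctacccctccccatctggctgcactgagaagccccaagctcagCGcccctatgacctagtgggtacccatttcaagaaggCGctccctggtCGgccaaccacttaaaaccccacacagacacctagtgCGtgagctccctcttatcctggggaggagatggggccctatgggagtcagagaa

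The remaining Hoxb genes had weak or no peaks. Hoxb2, a hindbrain gene, had 2928 bp (66.7%) covered in Early-B from a peak with a −log10 p of 2.46 and a q above 0.05. Hoxb13, the posterior gene set apart from the rest of the cluster, had 432 bp from a peak with a −log10 p of 2.84, also with a q above 0.05. Neither had a progenitor peak. Hoxb1, Hoxb5 and Hoxb9 had no peak in either list. Between Hoxb13 and Hoxb9, an Early-B peak of 1449 bp with a −log10 p of 29.6 met no window of a Hox gene and no progenitor peak.

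In the Hoxc cluster (chromosome 15, 102920131 to 103037856, 118 kb) Early-B had 6 peaks over 12.8 kb (10.9%) and progenitors 2 peaks over 1.30 kb (1.1%). Only 0.478 kb was covered in both. Hoxc4, known in lymphoid cells as an activator of the gene for the antibody-editing enzyme AID, and its neighbour Hoxc5 shared an Early-B peak of 4516 bp from 103017281 to 103021796 (−log10 p 12.8), and neither had a progenitor peak. That peak covered the lower end of the annotated Hoxc4 span, while the Hoxc4 start site given in RefSeq's promoter table, at 103034395, had no peak within 1 kb in either list. Hoxc9, a limb and trunk patterning gene, had an Early-B peak covering 2641 bp (28.1%) with a −log10 p of 21.0. Its progenitor peak covered 478 bp (5.1%), with a −log10 p of 1.25 and a q above 0.05. Hoxc10 and Hoxc11, posterior genes, had 904 and 792 bp in Early-B and none in progenitors. Hoxc6 went the other way: it had a progenitor peak of 824 bp (−log10 p 12.6, the 59th highest of 7149 progenitor peaks that meet no Early-B peak) and no Early-B peak. Hoxc8, Hoxc12 and Hoxc13 had no peak in either list.

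Some Early-B peaks of Hoxc lay between the genes. The strongest peak of the cluster, 2646 bp with a −log10 p of 54.7, lay within Hotair, a long noncoding RNA gene between Hoxc12 and Hoxc11. It met no window of a Hox gene and no progenitor peak. Another, 1287 bp with a −log10 p of 19.7, lay between Hoxc11 and Hoxc10 and also met no progenitor peak.

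The Hoxd cluster (chromosome 2, 74667225 to 74766142) was nearly bare in both lists. Peaks covered 3.82 kb of its 98.9 kb in Early-B (3.9%) and 2.48 kb in progenitors (2.5%). Early-B thus had 1.54 times as much, beside 83.3 and 56.0 Mb over all peaks of the lists. Only Hoxd13, the digit gene at the posterior end, had a peak in both. The Early-B peak was 1993 bp wide with a −log10 p of 81.9, at 84.5% of its list by rank. The progenitor peak was 1469 bp wide with a −log10 p of 13.7, at 58.5%. The Early-B peak began 3070 bp downstream of the Hoxd13 start site and overlapped the gene's far end. The progenitor peak, from 74671748, lay wholly beyond the gene's end at 74671603 and met only the 1 kb added beside it. The promoter of Hoxd13 is shown for contrast with Hoxa9, since it has 37 CpG sites in 300 bases, the most after Hoxa13 among the Hox promoters matched, and had no peak within 1 kb of its start site in either list. It is on the plus strand at chr2:74667975-74668274 (RefSeq, GRCm38.p6), with each CG in capitals.
Hoxd13: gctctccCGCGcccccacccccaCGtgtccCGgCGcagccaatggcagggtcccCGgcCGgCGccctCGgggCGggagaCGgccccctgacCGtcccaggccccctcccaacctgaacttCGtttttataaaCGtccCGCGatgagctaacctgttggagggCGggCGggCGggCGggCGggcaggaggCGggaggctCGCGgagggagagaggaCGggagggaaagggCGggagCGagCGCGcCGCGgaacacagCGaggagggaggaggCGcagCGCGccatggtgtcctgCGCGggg

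Of the other Hoxd genes, Hoxd3 had an Early-B peak of 1391 bp (−log10 p 8.26) and no progenitor peak. Hoxd8 had a progenitor peak of 1007 bp (3.90) and no Early-B peak. Hoxd1, Hoxd4, Hoxd9, Hoxd10, Hoxd11 and Hoxd12 had no peak in either list.

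**Figure D3:**
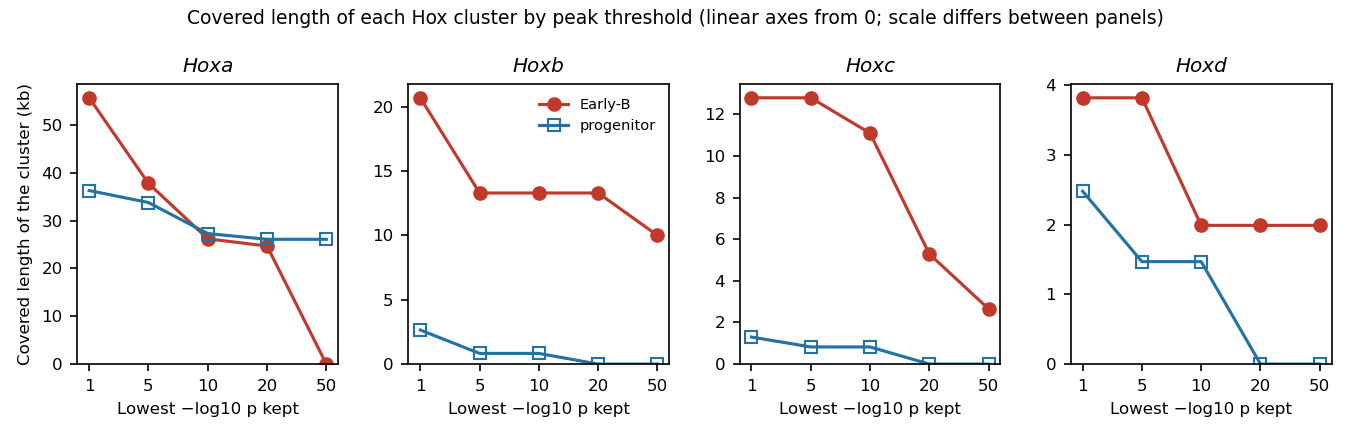
Covered length of each Hox cluster in kb (y axis, from 0, scaled per panel) when only peaks at or above a given −log10 p are kept (x axis), for the Early-B list (filled red circles) and the progenitor list (open blue squares). In Hoxb, Hoxc and Hoxd the Early-B line is the higher at every threshold, while in Hoxa the lines cross and at 50 the Early-B list has 0 kb against 26.1 kb in progenitors.

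Position along the clusters was examined by paralog group. Anterior genes (groups 1 to 3) numbered 7, of which 5 had a peak, and all 5 had at least 2-fold more covered length in Early-B (22.0% of all genes with a peak, and 5.20% toward progenitors). With only peaks of −log10 p 10 or more, 2 anterior genes had a peak and only Hoxb3 kept that difference, since the Early-B peaks of Hoxa2, Hoxb2 and Hoxd3 were weaker and Hoxa3 had 5176 bp in Early-B and 4645 bp in progenitors. Central genes (4 to 8) numbered 15, of which 12 had a peak, 6 with at least 2-fold more in Early-B and 2, Hoxc6 and Hoxd8, in progenitors. Posterior genes (9 to 13) numbered 16, of which 9 had a peak, 4 with at least 2-fold more in Early-B and 0 in progenitors. At that threshold 8 of 10 central and 1 of 5 posterior genes with a peak had at least 2-fold more in Early-B, and 1 of each in progenitors.

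Start sites gave a narrower view than gene windows. RefSeq's promoter table gave 24 start sites for 22 of the 38 genes. A peak came within 1 kb of 11 of the 24 in Early-B (beside 59.2% of all 21262 protein-coding start sites) and of 12 in progenitors (beside 56.4%). All 10 start sites of the 9 matched Hoxa genes had a peak in both lists. Of the 14 start sites in the other clusters, 1 had an Early-B peak, that of Hoxb4, and 2 had a progenitor peak, those of Hoxb4 and Hoxd8. Not matched were Hoxa4, Hoxb2, Hoxb3, Hoxb5, Hoxb6, Hoxb7, Hoxb9, Hoxb13, Hoxc5, Hoxc6, Hoxc8, Hoxc9, Hoxc10, Hoxc11, Hoxc12 and Hoxc13, which hold most of the Early-B peaks of Hoxb and Hoxc.

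CpG content varied widely among Hox start sites, both with and without a peak. The median observed to expected CpG ratio was 0.66 at the 11 Hox start sites with an Early-B peak and 0.57 at the 13 without. The ratios ran from 0.28 to 1.02 with a peak and from 0.26 to 0.97 without. Over all protein-coding start sites the medians were 0.76 with a peak and 0.22 without. Median GC content was 57.3% at Hox start sites with an Early-B peak and 59.3% without, beside 61.0% and 48.7% over all genes. A PBX-HOX site, TGATTNAT on either strand, was found at 2 of the 24 Hox start sites, those of Hoxa2 and Hoxd11, beside 2.75% of all.

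MicroRNA genes lie inside the clusters, and the series also measured microRNAs. MicroRNAs pair with their targets mainly through the seed, bases 2 to 8, in capitals below (RefSeq, GRCm38.p6). The 196 family and the 10 family each keep 1 seed across clusters, so the lists can be read for which copies were marked.
mmu-miR-196b-5p: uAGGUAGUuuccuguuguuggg
mmu-miR-196a-5p: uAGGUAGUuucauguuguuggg
mmu-miR-10a-5p: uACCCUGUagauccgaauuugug
mmu-miR-10b-5p: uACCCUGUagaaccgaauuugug
The precursor of miR-196b, between Hoxa9 and Hoxa10, lay inside the wide Hoxa peak in both lists. Both genes that encode miR-196a, Mir196a-1 in Hoxb and Mir196a-2 in Hoxc, had no peak within 1 kb in either list. Mir10a, just below Hoxb4, was 621 bp from the strong Early-B peak of Hoxb4 and 1042 bp from the nearest progenitor peak. Mir10b in Hoxd and Mir615 in Hoxc had no peak within 1 kb in either list. Of 14 noncoding genes of the clusters that were matched, 3 were marked in both lists, 6 in neither, and 5 by Early-B peaks alone. Early-B peaks alone marked 11 of the 38 Hox genes and 8.01% of all protein-coding genes. Besides Hotair and Mir10a, the 5 noncoding genes were Hoxb5os, Hoxb3os and Gm53, and the peak of Hoxb5os was the one at Hoxb6. The peaks at Hoxb3os (strongest −log10 p 2.46) and Gm53 (1.84) had a q above 0.05.

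Genes that act with or on Hox genes differed little between the lists. All 9 TALE cofactors, the homeodomain partners that bind DNA with HOX proteins, had a peak in both lists. Meis2 and Pknox2 were among those with at least 2-fold more covered length in Early-B. Meis1, the partner of HOXA9 in progenitors and leukaemia, had 14563 bp in Early-B and 21214 bp in progenitors. Of 15 activators of Hox genes, 13 had a peak in both lists, Kmt2a (4846 and 5380 bp) and Men1 (7916 and 4436 bp) among them. Cdx2, an upstream regulator of Hox genes, had 200 bp in Early-B and 1662 bp in progenitors and was the only activator to differ 2-fold, while Cdx1 and Cdx4 had no peak. All 12 Polycomb genes had a peak in both lists and none differed 2-fold, with Ezh2 at 7100 and 5856 bp.

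Other homeobox regulators of development were compared as the genes most like the Hox genes. Of 48, 29 had any peak, 8 (27.6%) with at least 2-fold more covered length in Early-B and 6 (20.7%) in progenitors. Over all protein-coding genes with a peak the shares were 22.0% and 5.20%. Among Hox genes the counts were 15 and 2 of 26, and outside Hoxa 12 and 2 of 16. The difference between these counts was not tested, since neighbouring genes share peaks. Stromal and mesenchymal markers had at least 2-fold more covered length in Early-B at 20 of 22 genes with a peak, and in progenitors at 0. Their strongest Early-B peaks had −log10 p values of 1.25 to 44.1, with a median of 7.31, and 7 of the 22 reached 10. The Early-B peaks at Hoxb6 (97.2), Hoxb4 (105), Hoxb3 (57.4), Hotair (54.7) and Hoxd13 (81.9) lay above that range. The Early-B peaks at Hoxa2, Hoxa4, Hoxb2, Hoxb13, Hoxc10 and Hoxc11, from 2.46 to 9.14, lay within it, as did the wide central Hoxa peak (37.8) and those at Hoxa5, Hoxa11, Hoxa13, Hoxb8, Hoxc4, Hoxc9 and Hoxd3. OP9 is a mouse line, so its chromatin would map to the same genome. The part of stromal chromatin in these Hox peaks was not tested. Stem and progenitor markers had at least 2-fold more covered length in Early-B at 2 of 12 genes and in progenitors at 3.

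**Figure D4:**
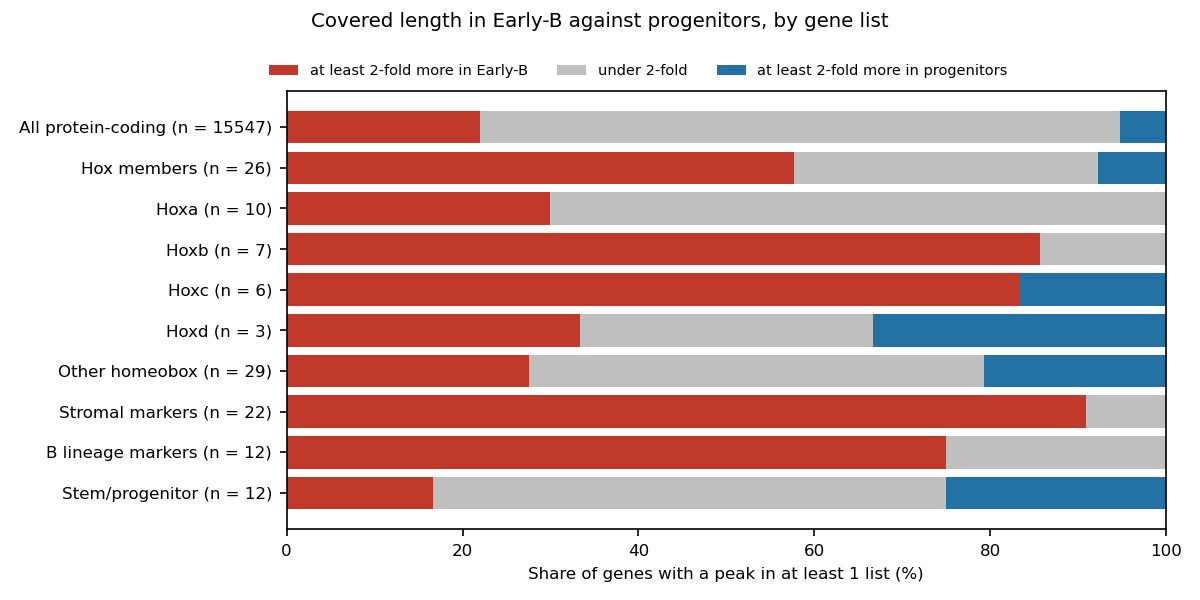
Share of genes, among those with any peak (n beside each name), with at least 2-fold more covered length in Early-B (red), in progenitors (blue) or under 2-fold either way (grey), in %. The red share is 6 of 7 genes in Hoxb, 5 of 6 in Hoxc, 20 of 22 in stromal markers and 9 of 12 in B lineage markers, and it is 3 of 10 in Hoxa beside 22.0% of all protein-coding genes.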

How the data were processed

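H3K4me3 chromatin immunoprecipitation was analysed from 1 deposited peak list for Early-B cells and 1 for Ebf1-/- progenitors; each list was assigned by its name, which matches that group's sample titles. MACS 1.4.3, Bowtie 1.1.2 and a mouse and a human build, mm10 and GRCh38, are listed per the submitters' processing notes, without roles. The columns are laid out as in broad peak files of later MACS versions, so the version that made the lists, and what pileup, fold and p stand for in a wide peak, are unsure. Pooling of replicates is not stated. Positions, lengths, pileup (a coverage signal), fold enrichment (a ratio to background) and −log10 p and q (a score of false discovery) are as deposited by the authors. The last pair was read from column order and values, since those headers are damaged, and q exceeded p at 0 peaks. Depth is unknown, so no counting interval is given. The samples of the other assays were not used here.

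Peaks were joined to RefSeq gene spans of GRCm38.p6, the assembly of mm10, counted from 1. Covered length is the number of bases of a gene's span plus 1 kb on each side lying under peaks. A gene had a peak when at least 1 bp overlapped, and a difference was counted when the larger covered length was at least 2 times the smaller. Genes with a peak in 1 list only always met this. Clusters were read from the first to the last listed gene plus 1 kb. All 38 listed Hox genes were matched and may be named; of other lists, genes with a peak in 1 list or a large difference in covered length. The members and the lists were chosen with earlier results of these data known. Python 3.11.15, numpy 2.4.6, pandas 2.3.3 and matplotlib 3.10.9 were used. On simulated peaks at 4000 genes, the code returned the covered length and class of all 4000. The series of −log10 p thresholds and the stretches beside the clusters were chosen after seeing the data. Alternatives were other windows, thresholds, overlaps and folds, and lists of equal length.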

Additional observations from a re-analysis of the deposited data

How the results depend on the processing

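Of 116 values recomputed over 10 alternatives for the counts of Hox genes and the covered bp of the clusters, 86 stayed within 1.5 times the value reported and 30 did not. At a −log10 p of at least 10, Early-B covered 26203 bp of Hoxa, 13326 of Hoxb and 1993 of Hoxd, and progenitors 829 bp of Hoxb, 824 of Hoxc and 1469 of Hoxd. A peak was then present at 15 genes in Early-B, at 9 in progenitors, at 7 in both and at 21 in neither. At a q of at most 0.05, Hoxb had 13326 bp in Early-B and 829 in progenitors, and Hoxc 824 in progenitors. At a fold enrichment of at least 5, Early-B covered 24716 bp of Hoxa, 13326 of Hoxb, 6574 of Hoxc and 1993 of Hoxd, and progenitors 829 of Hoxb and 0 of Hoxc and Hoxd. A peak was then present at 11 genes in Early-B and 6 in progenitors, in both at 5, in Early-B only at 6, in progenitors only at 1 and in neither at 26, and a 2-fold difference was found at 7 toward Early-B and 1 toward progenitors. At equal list lengths Hoxb had 13326 bp in Early-B. With a 5 kb window 7 genes had no peak. The part of these shifts that comes from keeping fewer peaks follows from how the thresholds are built. In the 6 alternatives that give covered bp of clusters, Hoxb, Hoxc and Hoxd had more in Early-B. In all 10 more Hox genes differed 2-fold toward Early-B than toward progenitors. Protein-coding genes with a peak also leaned toward Early-B in all 10, as at equal list lengths (16.8% against 8.51%). There the Hox genes counted 13 and 2 of 24. Hoxa turned at a −log10 p of at least 10 and at a fold of at least 5, where progenitors had 27331 and 26068 bp. No paired analysis was possible because each group has 1 peak list, and for the same reason no replicate could be left out. Peaks below a list's own threshold cannot be seen here, so a gene without a peak is not shown to lack the mark.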

Other observations

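Genes beside the clusters were mostly marked alike in both lists, with 2 exceptions. Of 10 flanking protein-coding genes, 6 had a peak in both lists, among them Skap2 (4147 bp in Early-B and 3879 bp in progenitors), Lnpk, Mtx2 and Smug1. Skap1, an adaptor of T cell signalling beside Hoxb, had 16940 bp covered in Early-B, with a strongest −log10 p of 23.7, and no progenitor peak. Evx2, a homeobox gene beside Hoxd13, had 374 bp covered in Early-B, at the edge of a 1892-bp peak with a −log10 p of 40.2, and no peak in progenitors. Evx1 and Ttll6 had none in either list.

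Within 25 kb of the outer edges, Hoxa had 3857 bp covered in Early-B (strongest −log10 p 9.14) and 1825 bp in progenitors (66.1), all on the lower side. The Hoxc cluster had no peak on either side in either list, and Hoxb had 1 Early-B peak (1166 bp, −log10 p 4.87) and no progenitor peak. Beside Hoxd, Early-B had 2969 bp on the lower side (strongest −log10 p 40.2) and 671 bp on the upper side (1.25). Progenitors had 322 bp on the lower side (2.33) and no peak on the upper side.

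Among the other homeobox regulators, private peaks went both ways: Dlx5, Emx2 and Gsx1 had a peak in Early-B only, and Dlx3, Six2, Lhx1, Lhx8, Nkx2-5 and En1 in progenitors only. The most covered length in a gene window among these was 3263 bp at Emx2 in Early-B and 2896 bp at Dlx3 in progenitors.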
